A study of Mus musculus with 24 samples.

Results

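The genes described here are 10 members of the Cyp4 family of cytochrome P450 enzymes that were counted in mouse liver. They are Cyp4a10, Cyp4a12a, Cyp4a12b, Cyp4a14, Cyp4a31, Cyp4a32, Cyp4b1, Cyp4f14, Cyp4f15, and Cyp4v3. They were taken by name from a table of read counts for 23972 genes, and the rule that lists them uses no measured value, although earlier results of these data were known when it was written. All 10 members were in the table and none was filtered out.

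Liver RNA-Seq covered 24 libraries, each from the liver of 1 female mouse on a C57BL/6J background. Control mice (Lmna fl/fl without Adipoq-Cre) gave 7 vehicle libraries and 3 FGF21-labelled libraries. Lmna ADKO mice (Lmna fl/fl with Adipoq-Cre) gave 6 vehicle and 8 FGF21-labelled libraries. Lamin A/C is lost in adipocytes of Lmna ADKO mice, which leads to loss of fat tissue (lipodystrophy), and hepatocytes keep the gene because Adipoq-Cre acts in adipocytes and in adipogenic progenitors of the bone marrow. By the study's methods, the mice were 12 to 14 weeks old at the start, were housed at 22°C, ate a high-fat diet for 4 weeks before treatment, and were euthanized 8 weeks after it. Treated mice received an AAV8 vector that carries the hormone FGF21 and vehicle mice received buffered saline with Pluronic, both by retro-orbital injection. The labels call the treated groups a rescue, and this was read as FGF21.

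Between 19863304 and 21510054 reads were counted per library, so depth differed little between groups. Levels of Fgf21 did not set the treated groups apart. They ran from 3.14 to 7.40 CPM (read counts scaled to a common library size) in FGF21-labelled controls against 1.90 to 10.8 CPM with vehicle, and from 2.19 to 9.99 CPM in FGF21-labelled Lmna ADKO libraries against 4.63 to 10.6 CPM with vehicle. The treatment label could therefore not be checked from the counts, and the groups are called FGF21-labelled throughout. Lmna itself was not lower but higher in Lmna ADKO livers (26.7 ± 2.57 CPM, SD, n = 6, against 18.6 ± 2.47 CPM, n = 7, with vehicle). The log2 fold change was 0.52 (edgeR adjusted p = 0.00322). The lowest Lmna ADKO vehicle library (23.6 CPM) lay above the highest control vehicle library (22.1 CPM). The reason was not tested, and whole liver does not test a deletion in adipocytes. Hepatocyte markers summed to between 69454 and 145488 CPM in every library. In 3 libraries, control vehicle 3, control FGF21-labelled 3, and Lmna ADKO FGF21-labelled 7, longer genes had lower levels. The slope of log2 level, relative to the median of the genotype, on log2 gene length was -0.154, -0.289, and -0.331 in these libraries, whereas it lay between -0.109 and 0.128 in the others, and results that change without them are given as such. Libraries are numbered within groups in the order of the animal numbers, which have 3 or 4 digits. Of the vehicle libraries, 6 of 7 controls have 3 digits and 5 of 6 Lmna ADKO libraries have 4. All 3 FGF21-labelled controls have 4 digits, as do 4 of the 8 FGF21-labelled Lmna ADKO libraries. Genotype among vehicle libraries and treatment among controls are therefore nearly confounded with number length.

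Enzymes of the Cyp4 family sit in the membrane of the endoplasmic reticulum and hydroxylate fatty acids and eicosanoids at or near the last carbon, a reaction called omega-hydroxylation. The hydroxy acid is then oxidized to a dicarboxylic acid, which can be shortened in peroxisomes. In mouse liver, Cyp4a10 and Cyp4a14 are classic targets of PPAR-alpha, the nuclear receptor that senses fatty acids. Cyp4a12a is best known as the male form of the group, since its transcript depends on the male pattern of growth hormone secretion. Cyp4f14 and Cyp4f15 act on leukotrienes and very long chain fatty acids, Cyp4v3 is the mouse counterpart of the human gene mutated in Bietti crystalline dystrophy, and Cyp4b1 also handles xenobiotics.

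The members share the loop that holds the heme, and this stretch shows how close they are in sequence. The 30 coding bases around the codon of the cysteine that binds the heme iron are printed below for the genes the results turn on, and this codon is in capitals. The sequences were read from GRCm38 with the GENCODE M21 annotation, and each stretch crosses an exon junction, after base 17 in all genes shown except Cyp4v3, where it follows base 28.

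Cyp4a10: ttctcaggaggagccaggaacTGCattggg
Cyp4a14: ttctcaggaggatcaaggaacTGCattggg
Cyp4a12a: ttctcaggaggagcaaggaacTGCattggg
Cyp4f14: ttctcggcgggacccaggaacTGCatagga
Cyp4f15: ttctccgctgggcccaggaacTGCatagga
Cyp4v3: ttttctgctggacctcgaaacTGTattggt

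For Cyp4a10 these bases are chr4:115529502-115529518 and chr4:115532531-115532543 on the plus strand, and for Cyp4a14 chr4:115489789-115489805 and chr4:115487299-115487311 on the minus strand. For Cyp4f14 they are chr17:32906049-32906065 and chr17:32905666-32905678 on the minus strand, and for Cyp4f15 chr17:32702398-32702414 and chr17:32702789-32702801 on the plus strand. Cyp4a14 differed from Cyp4a10 at 2 of the 30 bases, Cyp4f14 at 6, Cyp4f15 at 7, and Cyp4v3 at 10. Cyp4f14 and Cyp4f15 differed from each other at 3. Cyp4a31 and Cyp4a32 held the same 30 bases as Cyp4a10.

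The genes lie in 3 places in GRCm38. The 6 Cyp4a genes and Cyp4b1 form a cluster on chromosome 4 that runs from the start of Cyp4a12a (chr4:115299046-115332815) to the end of Cyp4b1 (chr4:115624725-115647723). Cyp4a14 (chr4:115486200-115496142, minus strand) and Cyp4a10 (chr4:115518264-115533649, plus strand) are neighbours there. Cyp4f15 (chr17:32685627-32703352, plus strand) and Cyp4f14 (chr17:32905070-32917342, minus strand) lie on chromosome 17, beside Cyp4f13 (chr17:32924688-32947402, minus strand), which is no member. Cyp4v3 lies alone on chromosome 8 (chr8:45304944-45333216, minus strand).

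Coding sequences of Cyp4a10 and Cyp4a14 were 76.7% identical, so that reads separate them well, and all 100-base windows of the exons of Cyp4a14, Cyp4f14, and Cyp4f15 occurred in no other annotated gene. The counts of 7 members are less certain. Of the windows of Cyp4b1 and Cyp4v3, 95.5% and 94.2% occurred in no other gene, the rest being shared with the pseudogenes Cyp4b1-ps1 and Cyp4b1-ps2 and with Gm45753, whose exons overlap those of Cyp4v3 on the same strand. Coding sequences of Cyp4a31 and Cyp4a32 were 96.6% and 97.2% identical to that of Cyp4a10, and 91.8% and 79.9% of their windows, and 87.3% of those of Cyp4a10, occurred in no other gene. Cyp4a12a and Cyp4a12b were 98.5% identical, with 64.2% and 63.8% of windows in no other gene. The stretch in which they differ most in 30 coding bases, from base 654 to base 683 of the coding sequence, is shown with its 4 differing bases in capitals, because counts of this pair rest on such places. It is chr4:115326652-115326681 in Cyp4a12a and chr4:115432905-115432934 in Cyp4a12b, both on the plus strand.

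Cyp4a12a: agttgaggacctgaacGatctcGtttttTC
Cyp4a12b: agttgaggacctgaacAatctcTtttttCT

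Cyp4a14 and Cyp4a10 were the most abundant members, and the members fell into 4 levels in control vehicle livers. Divided by exonic length, Cyp4a14 stood at 686 ± 209 and Cyp4a10 at 557 ± 143 CPM per kb (SD, n = 7), and these overlapped in their spread. Cyp4v3 (77.7 ± 10.4 CPM per kb), Cyp4f15 (77.6 ± 9.69 CPM per kb), and Cyp4f14 (65.1 ± 6.97 CPM per kb) followed and were not separated from each other by more than their spread. Cyp4a32 (11.2 ± 3.35 CPM per kb), Cyp4b1 (10.6 ± 1.62 CPM per kb), and Cyp4a31 (7.95 ± 5.04 CPM per kb) formed the next level, again with overlap. Cyp4a12a (0.0253 ± 0.0322 CPM per kb) and Cyp4a12b (0.0028 ± 0.0074 CPM per kb) were close to 0 in these female livers. In Lmna ADKO vehicle livers Cyp4a14 was at 499 ± 118 and Cyp4a10 at 270 ± 78.2 CPM per kb (SD, n = 6), and Cyp4v3, at 86.6 ± 11.8 CPM per kb, stood above Cyp4f15 (37.7 ± 4.61) and Cyp4f14 (18.5 ± 2.35 CPM per kb) without overlap between libraries. Summed over the 10 members, the level per length was 1494 ± 343 CPM per kb in control vehicle livers and 942 ± 197 CPM per kb in Lmna ADKO vehicle livers.

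**Figure D1:**
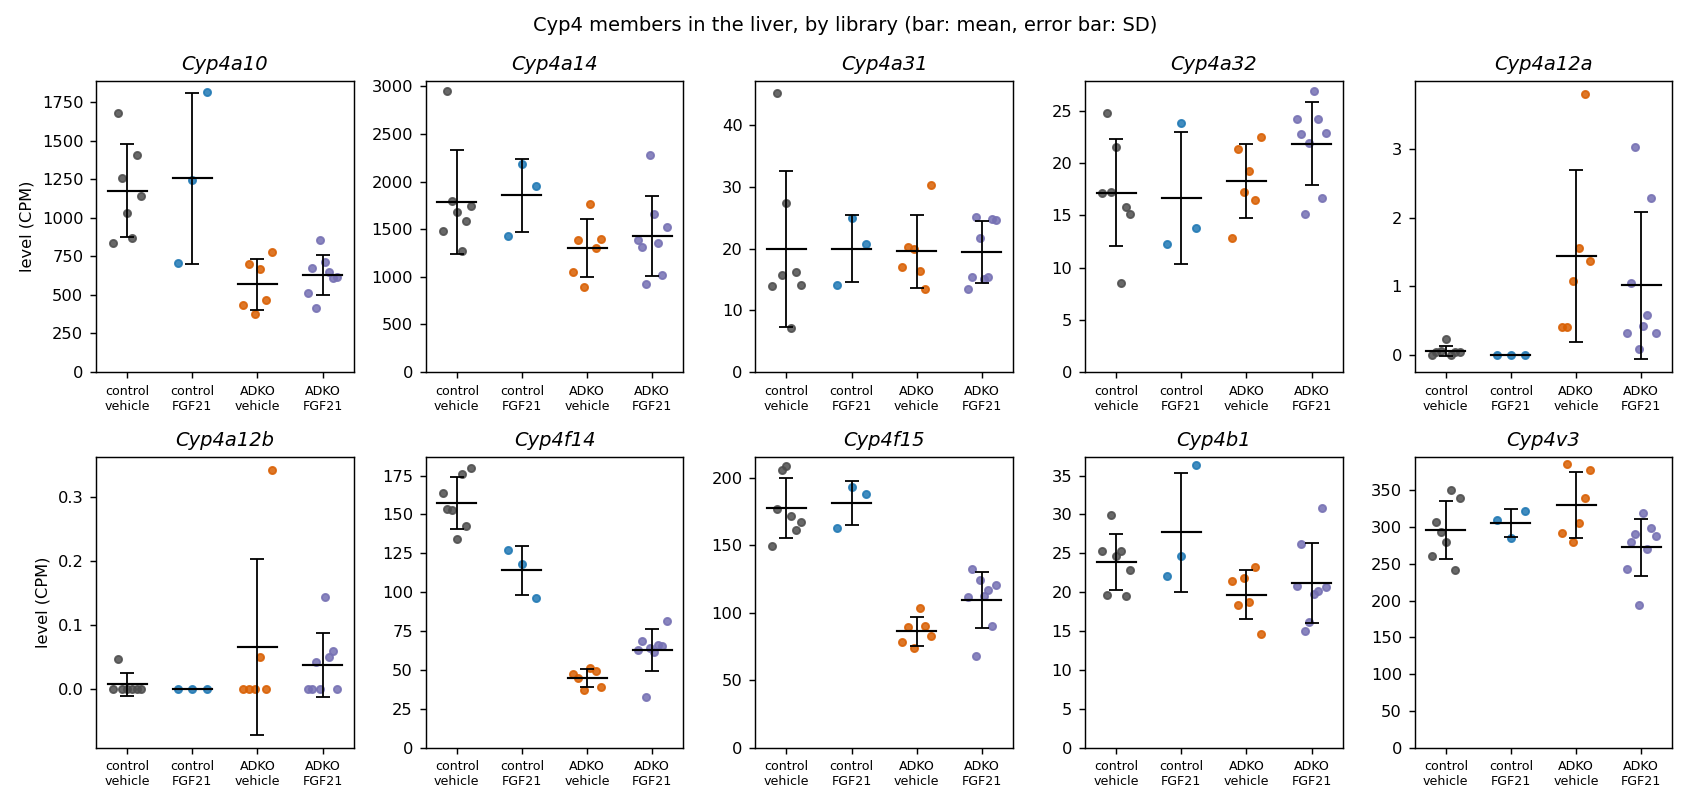
Levels of the 10 Cyp4 members in CPM (vertical axes, linear and different for each gene) in each of the 24 liver libraries by group; points are libraries, bars the mean and error bars the SD. Cyp4f14 and Cyp4f15 were lower in every Lmna ADKO library than in every control library of the same treatment label, and Cyp4a12a was near 0 in controls and between 0.406 and 3.80 CPM in Lmna ADKO vehicle libraries.

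The first comparison asked how the livers of lipodystrophic mice differ from those of controls when no treatment is given. Cyp4f14, Cyp4f15, and Cyp4a10 fell in Lmna ADKO livers, and Cyp4a12a rose from near 0. The other 6 members were not called. A gene was called at an adjusted p under 0.05 in edgeR's quasi-likelihood test, with Benjamini-Hochberg adjustment over all 23972 genes, and a fold change above 1.5. In this comparison 3 of 10 members were called lower, where 3.36% of all genes were, and 1 of 10 was called higher, where 5.12% of all genes were. The median log2 fold change was -0.15 over the members and 0.00 over all genes. In bulk liver, fewer cells of a type and less RNA per cell cannot be told apart.

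Cyp4f14, which inactivates leukotriene B4 by hydroxylation, showed the largest decrease of the members. Control vehicle libraries ranged from 134 to 180 CPM with a median of 153 CPM. Lmna ADKO vehicle libraries ranged from 37.4 to 51.6 CPM with a median of 46.0 CPM. The groups were far apart, with every Lmna ADKO library below every control library. The level was 3.51-fold lower (log2 fold change -1.81, SE 0.141, 95% interval -2.10 to -1.52, edgeR adjusted p = 1.98e-09). The Lmna ADKO library with a 3-digit number was at 47.3 CPM and the control library with a 4-digit number at 180 CPM. Each lay with the libraries of its own genotype, and with 1 library on a side no test within a number length was possible. With number length as a covariate the log2 fold change was -1.92.

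Cyp4f15, its neighbour on chromosome 17, fell less. Control vehicle libraries lay between 149 and 208 CPM (median 172 CPM), and Lmna ADKO vehicle libraries between 73.6 and 103 CPM (median 85.8 CPM). These groups did not overlap either. The level was 2.06-fold lower (log2 fold change -1.04, SE 0.127, edgeR adjusted p = 1.59e-06). Cyp4f13, the next gene of the cluster and no member, also fell, from 62.8 ± 6.29 CPM (SD, n = 7) to 37.3 ± 2.92 CPM (n = 6), with a log2 fold change of -0.75 (SE 0.109, edgeR adjusted p = 1.94e-05). Of a fixed list of other Cyp4 genes, 7 were in the table, and Cyp4f13 was the only 1 of these called. The table holds 10 Cyp4 genes that are no members, and those outside the list were not examined.

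Cyp4a10, an omega-hydroxylase of medium and long chain fatty acids, fell to a similar degree as Cyp4f15. Control vehicle libraries ranged from 838 to 1678 CPM (median 1143 CPM) and Lmna ADKO vehicle libraries from 374 to 777 CPM (median 568 CPM). The highest Lmna ADKO library stayed below the lowest control library. The log2 fold change was -1.04 (SE 0.209, 95% interval -1.47 to -0.61, edgeR adjusted p = 0.000939). Exact permutation tests over all 1716 divisions of the libraries gave the smallest p they can give, 0.000583 (two-sided, unadjusted), for each of Cyp4a10, Cyp4f14, Cyp4f15, and Cyp4a12a.

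Cyp4a14, which shares substrates and regulation with Cyp4a10, was not called. Control vehicle libraries ran from 1272 to 2952 CPM (median 1676 CPM) and Lmna ADKO vehicle libraries from 889 to 1769 CPM (median 1347 CPM). These ranges overlapped, and control library 2 stood far above its group. The log2 difference was -0.46 (SE 0.196, 95% interval -0.86 to -0.06, edgeR adjusted p = 0.123). This interval overlaps that of Cyp4a10, and the difference between the changes of these genes was not tested.

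Cyp4a12a was the member that was higher. Counts in the 7 control vehicle libraries were 0, 1, 1, 5, 0, 1, and 1, and in the 6 Lmna ADKO vehicle libraries 9, 9, 26, 32, 82, and 32. All Lmna ADKO libraries held more reads than any control library, although the level remained low, at 1.44 ± 1.25 CPM (SD, n = 6). Pooled over libraries and scaled by depth, 190 reads against 9 gave a ratio of 24.7 with an exact counting interval of 12.8 to 54.9, which covers counting error only, and the edgeR adjusted p was 0.00149. Of these reads, 82 came from Lmna ADKO library 5 and 5 from control library 4. The fitted log2 fold change of 4.40 became 3.84 without the first and 5.22 without the second, the extremes over the 13 libraries left out in turn, and edgeR adjusted p-values ran from 0.00120 to 0.00433 over them. Cyp4a12b had 1 read in all control vehicle libraries and 9 in all Lmna ADKO vehicle libraries, of which 1 library held 8. This gave a ratio of 10.5 with a counting interval from 1.46 to 462, and the gene was not called (edgeR adjusted p = 0.153).

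The other 4 members differed by less than the test could call, and their intervals bound the size. The log2 difference of Cyp4b1 was -0.28 (95% interval -0.58 to 0.03), with 23.9 ± 3.66 CPM in controls (SD, n = 7) and 19.7 ± 3.11 CPM in Lmna ADKO mice (n = 6). Cyp4v3 gave 0.16 (95% interval -0.08 to 0.39), with 241 to 350 CPM in controls and 279 to 386 CPM in Lmna ADKO mice. Cyp4a32 gave 0.09 (95% interval -0.31 to 0.48) and Cyp4a31 -0.03 (95% interval -0.67 to 0.61). Libraries of Cyp4a32 ranged from 8.51 to 24.8 CPM in controls and from 12.8 to 22.5 CPM in Lmna ADKO mice, and those of Cyp4a31 from 7.18 to 45.2 CPM and from 13.4 to 30.3 CPM. The groups overlapped for all 4 genes, least for Cyp4b1, where 3 of 6 Lmna ADKO libraries lay below all controls (exact permutation test, p = 0.0478, two-sided, unadjusted). Among the members, 6 had an unadjusted edgeR p under 0.05, the 4 called ones, Cyp4a14, and Cyp4a12b. No share of all genes was counted at this unadjusted p. By the adjusted p alone, 3623 of the 23972 genes passed in this comparison.

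The second comparison set FGF21-labelled Lmna ADKO livers against FGF21-labelled controls, and so asked whether the same genes differ under treatment. The same 4 members were called in the same directions. Here 3 of 10 members were called lower, against 1.26% of all genes, and 1 was called higher, against 1.61%. The median log2 fold change was -0.27 over the members and 0.02 over all genes. The comparison uses other libraries than the one with vehicle, and only 3 of them are controls.

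Cyp4f14 was at 127, 118, and 96.5 CPM in the FGF21-labelled controls and between 32.6 and 81.2 CPM, with a median of 64.9 CPM, in the FGF21-labelled Lmna ADKO libraries. No Lmna ADKO library reached a control library. The level was 1.81-fold lower (log2 fold change -0.86, SE 0.158, edgeR adjusted p = 0.00202). Cyp4f15 was at 163, 193, and 188 CPM in controls and between 68.0 and 132 CPM (median 115 CPM) in Lmna ADKO livers, again without overlap. Its level was 1.65-fold lower (log2 fold change -0.73, SE 0.146, edgeR adjusted p = 0.00377). For both genes the exact permutation test gave its smallest possible p over 165 divisions, 0.00606 (two-sided, unadjusted).

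Cyp4a10 was at 709, 1243, and 1815 CPM in controls, a wide spread for 3 mice, and between 418 and 854 CPM (median 632 CPM) in Lmna ADKO livers. Of the 8 Lmna ADKO libraries, 6 lay below all controls. The log2 fold change was -0.99 (SE 0.239, edgeR adjusted p = 0.0161). This call depended on control library 3, which is also a library whose levels fell with gene length. Without it the log2 difference was -0.63 with an edgeR adjusted p of 0.270, without control library 2 the adjusted p was 0.0614, and with the 4-digit animals alone it was 0.117.

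Cyp4a12a had 0 reads in all 3 FGF21-labelled controls, and 7, 21, 73, 2, 9, 12, 39, and 7 reads in the 8 Lmna ADKO libraries. Each Lmna ADKO library was thus above each control. Set against a floor of 3 reads over the control group, the level was at least 21.3-fold higher (edgeR adjusted p = 0.0347). The call was lost when any 1 of the 3 controls was left out, with edgeR adjusted p-values of 0.0891, 0.117, and 0.137. Cyp4a12b had 6 reads in the Lmna ADKO libraries and 0 in controls, and no fold is given for it.

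The remaining members were not called in FGF21-labelled livers. Log2 differences were -0.37 for Cyp4a14 (95% interval -0.85 to 0.11), -0.39 for Cyp4b1 (-0.75 to -0.02), 0.39 for Cyp4a32 (-0.10 to 0.88), -0.16 for Cyp4v3 (-0.45 to 0.12), and -0.04 for Cyp4a31 (-0.82 to 0.74). For Cyp4b1, control library 3, whose levels fell with gene length, was at 36.3 CPM, and the other controls were at 22.1 and 24.7 CPM. The log2 difference of Cyp4b1 ran from -0.40 to -0.23 over the alternative analyses. When 1 library was left out in turn, it ran from -0.53 to -0.15. Cyp4a14 was at 1426, 2180, and 1954 CPM in controls and between 920 and 2280 CPM in Lmna ADKO livers, so that the groups overlapped. Cyp4f13 was lower by -0.50 on the log2 scale (edgeR adjusted p = 0.0207) and stayed under the fold threshold.

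**Figure D2:**
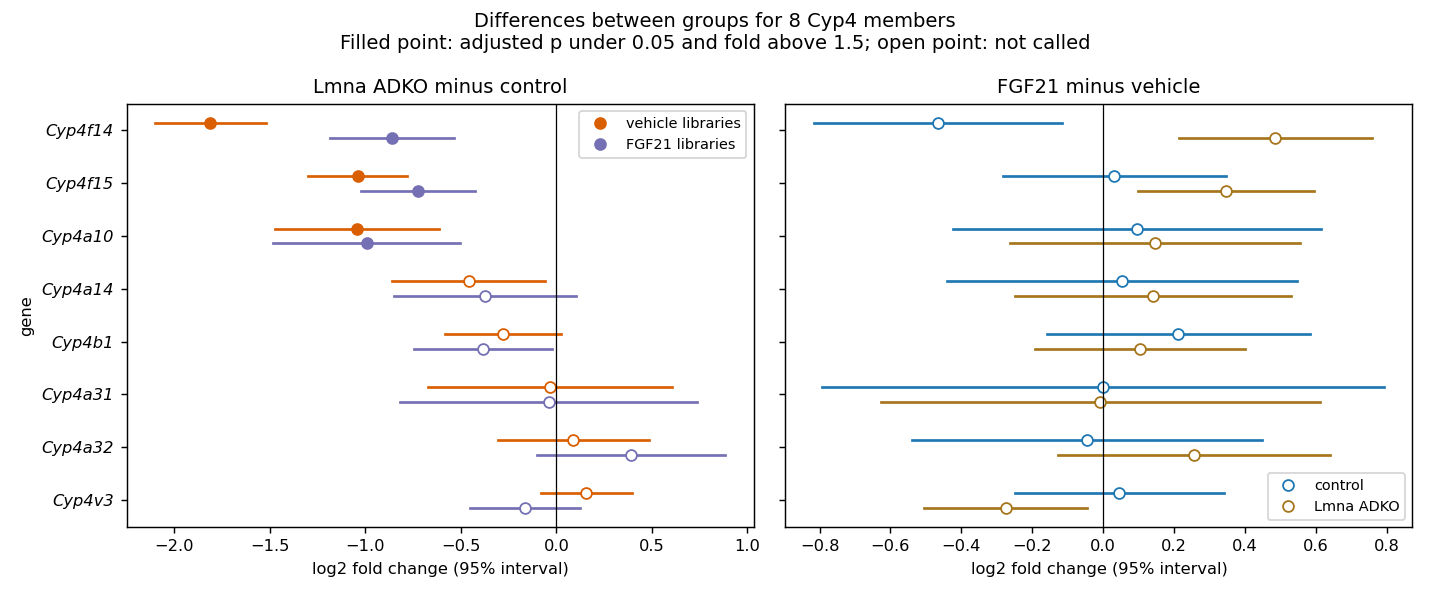
Log2 fold changes (horizontal axis) with 95% intervals of the 8 members with reads in every library, for Lmna ADKO minus control (left) and FGF21-labelled minus vehicle (right); filled points passed both thresholds. Cyp4f14, Cyp4f15, and Cyp4a10 are filled at the left with both treatment labels, and no point is filled at the right.

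The third question was whether the treatment changed these genes. No member was called in either genotype. In controls 0 of 10 members were called, where 0.0501% of all genes were called higher and 0.00417% lower, and in Lmna ADKO mice 0 of 10 were called, where 0.0% of all genes were called higher and 0.0% lower. With number length as a covariate, the 12 genes called higher and the 1 called lower in controls by edgeR became 0 and 0, so that treatment and number length cannot be told apart there. DESeq2 called 28 genes higher and 10 lower in controls and 7 higher and 8 lower in Lmna ADKO mice, also with 0 members among them. An unadjusted edgeR p under 0.05 was seen for 1 member in controls (Cyp4f14) and for 3 in Lmna ADKO mice (Cyp4f14, Cyp4f15, and Cyp4v3). The share of all genes under this unadjusted p was not counted, so these counts cannot be read as a result about the members. The members had a median log2 difference of 0.02 in controls and of 0.12 in the Lmna ADKO genotype, and all genes one of 0.00 in each.

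Differences of Cyp4f14 between FGF21-labelled and vehicle livers had opposite signs in the genotypes, and neither was called. In controls all 3 FGF21-labelled libraries (96.5 to 127 CPM) lay below all 7 vehicle libraries (134 to 180 CPM). In Lmna ADKO mice 7 of 8 FGF21-labelled libraries (61.3 to 81.2 CPM) lay above all 6 vehicle libraries (37.4 to 51.6 CPM), and the eighth, library 3, was below them at 32.6 CPM. The log2 difference was -0.47 in controls (SE 0.171, 95% interval -0.82 to -0.12, edgeR adjusted p = 0.639) and 0.49 in Lmna ADKO mice (SE 0.133, 95% interval 0.21 to 0.76, edgeR adjusted p = 0.537). Exact permutation tests gave an unadjusted two-sided p of 0.00833 in controls, the smallest that 120 divisions can give, and of 0.0260 in Lmna ADKO mice.

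The difference between these differences was tested as the interaction of genotype and treatment. For Cyp4f14 it was 0.95 on the log2 scale (SE 0.218, 95% interval 0.51 to 1.40), with an unadjusted edgeR p of 0.000146 and an adjusted p of 0.390, so that it was not called. Of the 10 members 0 were called, while 0.0% of all genes were called with a higher and 0.00417% with a lower interaction. DESeq2 gave 0.94 with an adjusted p of 0.0293 for Cyp4f14, and edgeR without Lmna ADKO FGF21-labelled library 3 gave 1.04 with an adjusted p of 0.00655. That library is the one that lay below all vehicle libraries. In 5 of 6 alternatives and 23 of 24 leave-outs the interaction was not called, with edgeR adjusted p-values up to 0.702 and 0.689. Treatment among controls is nearly confounded with number length, which also bears on this interaction. The comparisons that make up the interaction share libraries with those above.

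Cyp4f15 and Cyp4v3 gave smaller differences with treatment in Lmna ADKO mice. For Cyp4f15, 6 of 8 FGF21-labelled libraries lay above all vehicle libraries and 1, library 3, lay below them, with a log2 difference of 0.35 (95% interval 0.10 to 0.59, edgeR adjusted p = 0.691). In controls its log2 difference was 0.03 (95% interval -0.28 to 0.35). Cyp4v3 gave -0.27 in Lmna ADKO mice (95% interval -0.50 to -0.04, edgeR adjusted p = 0.704), with libraries between 194 and 319 CPM against 279 and 386 CPM with vehicle. In controls Cyp4v3 was at 310, 285, and 322 CPM against 241 to 350 CPM. The intervals of Cyp4a10 in Lmna ADKO mice (-0.26 to 0.56) and in controls (-0.42 to 0.62) leave room for a change of up to about the fold threshold in either group.

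Library 3 of the FGF21-labelled Lmna ADKO group stood at an end of its group for several members. It had the lowest Cyp4f14 (32.6 CPM), Cyp4f15 (68.0 CPM), Cyp4a10 (418 CPM), and Cyp4a14 (920 CPM) of the 8 libraries. It also had the highest Cyp4a12a (3.03 CPM). Its total of 20991753 reads was within the range of the others, but its TMM size factor of 1.15 was the highest of the 24 libraries. In unscaled reads, library 7 of the group was lower for Cyp4f15 (1528 against 1639) and Cyp4a14 (17373 against 22187). These ranks therefore depend on the scaling.

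Because Cyp4a10 fell and Cyp4a14 was not called, the makeup of the Cyp4a transcripts was described per library. The summed Cyp4a level per length was 1263 ± 344 CPM per kb in control vehicle livers (SD, n = 7) and 790 ± 186 CPM per kb in Lmna ADKO vehicle livers (n = 6). Cyp4a10 made up 44.3% ± 3.90 of it in the first group and 34.0% ± 3.71 in the second, and Cyp4a14 made up 54.2% ± 3.69 and 63.4% ± 3.93. With the FGF21 label, the share of Cyp4a10 was 43.6% ± 8.14 in controls (n = 3) and 34.7% ± 3.53 in Lmna ADKO livers (n = 8). The other 4 Cyp4a genes together made up the small remainder in every group. The ratio of Cyp4a10 to Cyp4a14 per length ranged from 0.697 to 1.10 in control vehicle libraries and from 0.442 to 0.687 in Lmna ADKO vehicle libraries, so that the groups did not overlap, whereas with the FGF21 label the ranges of 0.613 to 1.15 and 0.458 to 0.735 did. These are descriptions, and no test was run on them.

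**Figure D3:**
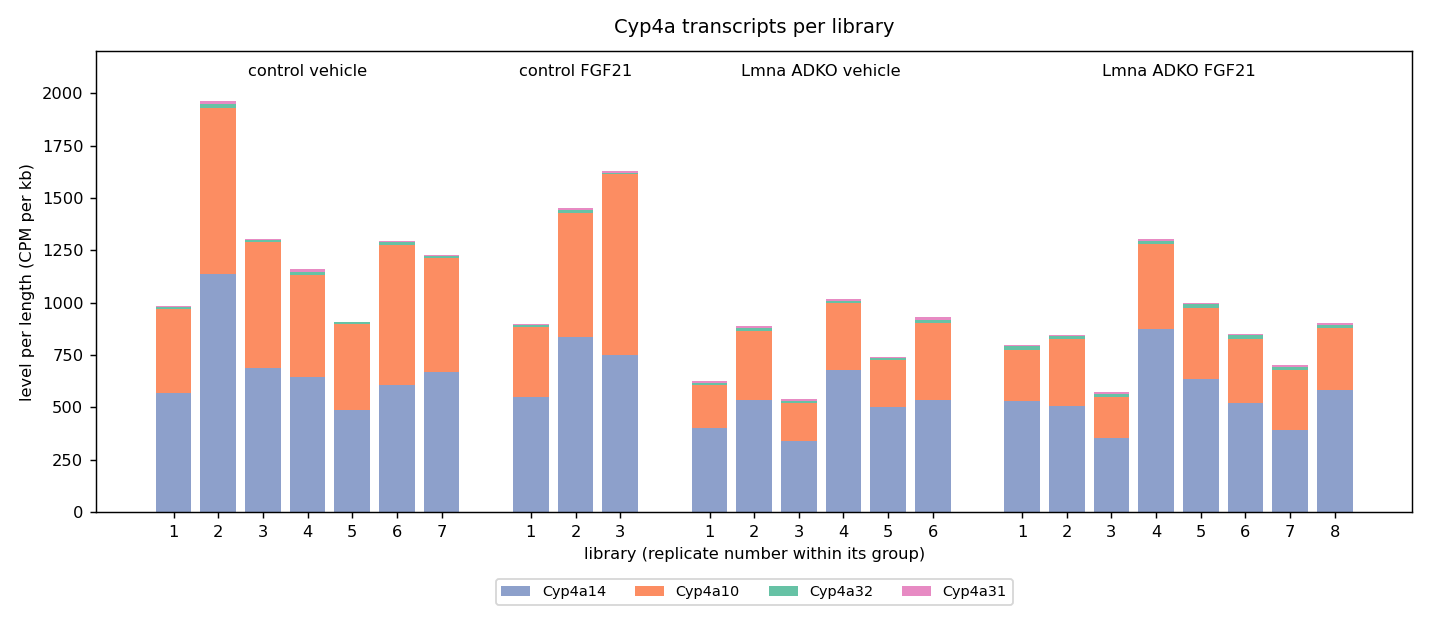
Level per length (vertical axis, CPM per kb) of Cyp4a14, Cyp4a10, Cyp4a32, and Cyp4a31, stacked, in each library (horizontal axis, replicate number within its group). Cyp4a12a and Cyp4a12b are not drawn. Cyp4a10 and Cyp4a14 fill nearly the whole bar everywhere. The mean total of the 6 Cyp4a genes was 1263 CPM per kb in control vehicle and 790 CPM per kb in Lmna ADKO vehicle livers.

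Within groups the members did not all move together. Over the 24 libraries, Pearson's r of log2 CPM was 0.92 between Cyp4f14 and Cyp4f15 and 0.59 after group means were subtracted. It was 0.80 between Cyp4a10 and Cyp4a14 and 0.77 within groups, and it was 0.75 between Cyp4a10 and Cyp4f14 but 0.10 within groups. Cyp4v3 stood apart, with r between -0.24 and 0.08 to the other 7 members with reads in every library. The values of a library share its depth, its slope on gene length, and its mouse, and no test was run on them.

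**Figure D4:**
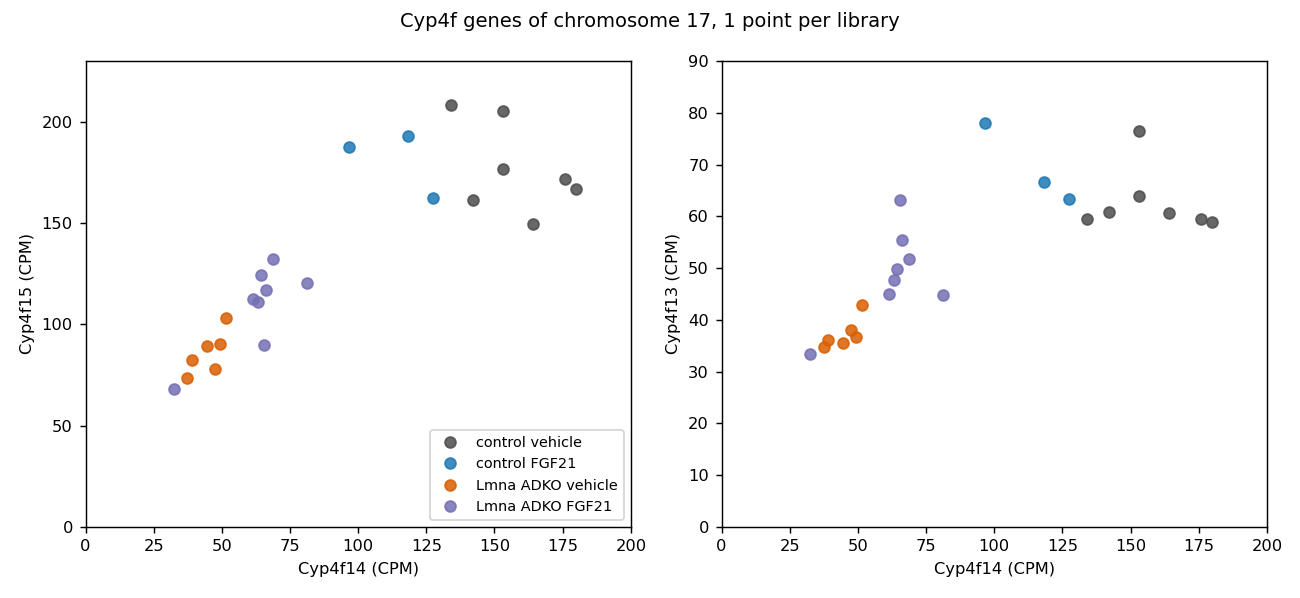
Cyp4f15 (left) and Cyp4f13 (right) against Cyp4f14, all in CPM on linear axes that start at 0, with 1 point per library and a color per group. Lmna ADKO libraries lie at the lower left with Cyp4f14 at or below 81.2 CPM, control libraries at the right with Cyp4f14 at or above 96.5 CPM.

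The genes whose pattern over the 24 libraries was most like that of a member were also sought, among the 12492 genes whose mean log2 CPM was 0 or above. For Cyp4a10 the closest was Slc27a2, which activates and imports very long chain fatty acids, with a Pearson r of 0.919 and of 0.770 within groups. For Cyp4f14 the closest were Entpd8 (r = 0.969, within groups 0.746), the cytokine receptor Lifr (0.959 and 0.725), and the prolactin receptor Prlr (0.948 and 0.739). For Cyp4f15 it was the kinase Stk11 (0.962 and 0.822), for Cyp4b1 the sinusoidal endothelial lectin Clec4g (0.927 and 0.909), and for Cyp4v3 the ammonium transporter Rhbg (0.791 and 0.815) with the periportal P450 Cyp2f2 in the third place (0.730 and 0.818). The closest to Cyp4a14, Cyp4a31, and Cyp4a32 were Rcc1l (0.797 and 0.719), Adam11 (0.745 and 0.759), and Bora (0.786 and 0.795). Cyp4b1 was highest of its group in control vehicle 3, control FGF21-labelled 3, and Lmna ADKO FGF21-labelled 7. In these libraries levels fell most with gene length. How far the r of Cyp4b1 and Clec4g rests on them was not tested. All r values given here are descriptions over 24 libraries that share depth and group.

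Partners of the Cyp4 enzymes were read from fixed lists. Counts of called genes in these lists stand against 5.12% of all genes called higher and 3.36% called lower with vehicle, and 1.61% and 1.26% with the FGF21 label, and for short lists 1 called gene is near these shares. Microsomal P450 enzymes take electrons from P450 reductase (Por) and from cytochrome b5 with its reductase. Por was not called (log2 difference -0.49, edgeR adjusted p = 0.140, vehicle), whereas the b5 reductase gene Cyb5r3 rose in Lmna ADKO livers by 0.61 on the log2 scale with vehicle (SE 0.114, edgeR adjusted p = 0.000397) and by 0.77 with the FGF21 label (adjusted p = 0.00242). It was the only 1 of 5 electron donor genes called in either comparison. Por was higher in all 3 FGF21-labelled controls (837 to 892 CPM) than in all vehicle controls (391 to 764 CPM), and this was not called.

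Of 8 genes for enzymes that carry the hydroxy acid on to the dicarboxylic acid, 2 were called higher and 0 lower with vehicle, with a median log2 difference of 0.02. Aldh3a2, the fatty aldehyde dehydrogenase, rose from 619 to 934 CPM on average (log2 fold change 0.59, edgeR adjusted p = 0.00232), and Aldh1a1, a retinal and aldehyde dehydrogenase, rose by 1.31 on the log2 scale (adjusted p = 0.000122). With the FGF21 label Aldh1a1 was called again (1.13, edgeR adjusted p = 0.0202) and Aldh3a2 was not (0.26, adjusted p = 0.432). The alcohol dehydrogenase genes Adh7 and Adh1 had log2 differences below 0 with vehicle and were not called.

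Peroxisomal oxidation genes showed few calls. Of 20 genes, 2 were higher and 1 lower with vehicle, with a median of 0.11, and 1 was higher and 0 lower with the FGF21 label. Scp2, a thiolase and sterol carrier, rose by 0.74 on the log2 scale in both comparisons (edgeR adjusted p = 1.50e-05 and 0.00194). Pex11a, which drives peroxisome division, rose with vehicle (0.99, edgeR adjusted p = 7.27e-05), and the acyl-CoA thioesterase Acot3 fell (-1.63, adjusted p = 0.0128). The bifunctional enzyme Ehhadh (-0.23, edgeR adjusted p = 0.548) was not called.

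Other textbook targets of PPAR-alpha were called in both directions. Of 30 such genes 6 were called higher and 1 lower with vehicle, with a median log2 difference of 0.12, and 2 were higher and 2 lower with the FGF21 label, with a median of -0.09. The lipid droplet genes Plin4 (2.31, edgeR adjusted p = 4.04e-07) and Cidec (5.31, adjusted p = 2.50e-06) rose with vehicle, and the fatty acid transporter Slc27a1 fell (-1.15, adjusted p = 2.66e-05). Carnitine palmitoyltransferase Cpt1a (0.25, edgeR adjusted p = 0.252) and the thioesterase Acot1 (-0.64, adjusted p = 0.156) were not called. No difference between Cyp4a10 and this list was tested. Of 17 receptors and co-regulators 1 rose and 1 fell in each comparison, with vehicle near the shares over all genes. Pparg rose (0.90 with vehicle, 0.59 with the FGF21 label), Nr1i3, the xenobiotic receptor CAR, fell (edgeR adjusted p = 0.00157 and 0.00233), and Ppara itself was not called (0.44, edgeR adjusted p = 0.342, vehicle).

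**Figure D5:**
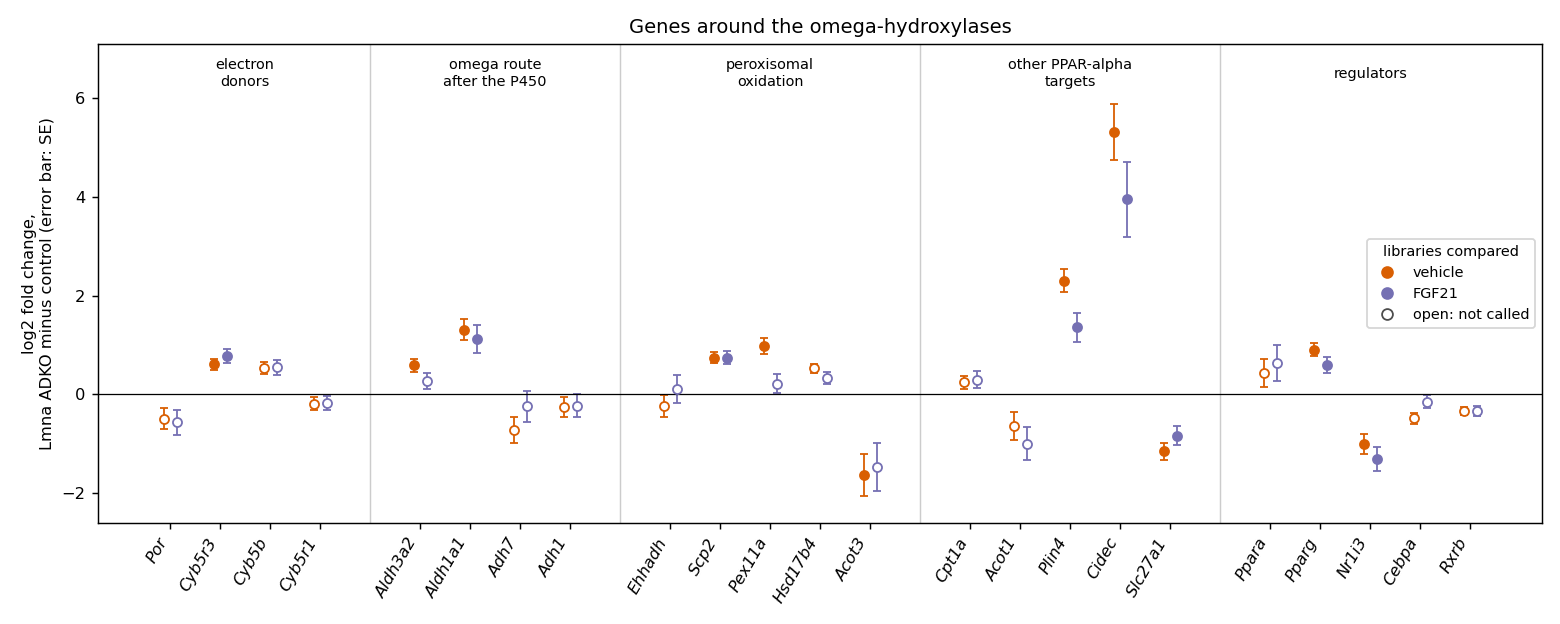
Log2 fold changes of Lmna ADKO minus control (vertical axis, error bars SE) of genes named from the lists of electron donors, the later omega route, peroxisomal oxidation, PPAR-alpha targets, and regulators, with vehicle and with the FGF21 label. Filled points passed both thresholds, and Cyb5r3, Aldh1a1, Scp2, Plin4, Cidec, and Pparg are filled above 0 in both comparisons.

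Since Cyp4a12a is a male-biased transcript, lists of sex-biased liver genes and of growth hormone signalling were read beside it. Genes known to be higher in females were called lower for 12 of 16 with vehicle and 6 of 16 with the FGF21 label, and 0 were called higher. Among them, Cyp2b9 fell by 0.79 on the log2 scale with vehicle (edgeR adjusted p = 0.000186), and Cux2, a repressor of male genes, fell from a range of 32.4 to 76.6 CPM in controls to 0.417 to 5.16 CPM. The median log2 difference of this list was -4.49 with vehicle and -1.70 with the FGF21 label, so that Cyp2b9 fell less than the median. Many genes of this list were near 0 in Lmna ADKO livers, where a fitted fold depends on the model, so that the size of these medians is uncertain. Of 16 genes higher in males, 4 were called higher and 2 lower with vehicle, and 2 higher and 0 lower with the FGF21 label. Their median log2 difference was 0.06 with vehicle and 0.52 with the FGF21 label, against 0.00 and 0.02 over all genes. With vehicle these genes thus showed no general rise. Cyp2d9 rose in both comparisons (2.58 and 2.63 on the log2 scale, edgeR adjusted p = 1.40e-06 and 0.000334).

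Targets and parts of growth hormone signalling were called lower for 5 of 12 genes with vehicle and 1 of 12 with the FGF21 label, with medians of -0.56 and 0.06. Igfals, which carries circulating IGF1, fell in both (-1.54, edgeR adjusted p = 1.59e-06, and -0.83, adjusted p = 0.0206). Igf1 fell with vehicle (-0.89, edgeR adjusted p = 0.000613). P450 enzymes of other families that act on fatty acids and epoxide hydrolases were called for 2 of 7 genes with vehicle, of which Ephx1 rose (0.98, edgeR adjusted p = 0.000307) and Cyp2e1 fell (-0.88, adjusted p = 0.00180). Whether these genes have a part in the levels of the Cyp4 members was not tested.

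Markers of liver cell types moved in the same comparison. Of 8 hepatocyte markers 0 were called higher and 4 lower with vehicle, and their summed level ranged from 84957 to 141650 CPM in controls and from 70435 to 105817 CPM in Lmna ADKO livers. Of 10 markers of hepatocytes around the central vein 6 were called lower with vehicle and 4 with the FGF21 label. Their sum ranged from 9924 to 16699 CPM in control vehicle and from 7018 to 12234 CPM in Lmna ADKO vehicle livers, and Cyp2e1 held most of it. Of 10 periportal markers 1 was called higher and 3 lower with vehicle.

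Cholangiocyte markers summed to between 27.1 and 51.2 CPM in control vehicle and to between 85.8 and 196 CPM in Lmna ADKO vehicle livers, with 2 of 6 called higher. Stellate cell markers were called higher for 3 of 8, from 227 to 325 CPM in controls and from 304 to 447 CPM in Lmna ADKO livers. Of endothelial markers 1 of 7 was called higher (Lyve1), and of macrophage markers 1 of 8. No lymphocyte, adipocyte, or kidney marker was called with vehicle in edgeR, and 1 of 4 pancreas markers was called lower. Kidney tubule markers stood at or below 0.428 CPM in sum in every library, although the kidney also expresses Cyp4a12a. The part of these shifts in the levels of the Cyp4 members was not tested.

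With the FGF21 label against vehicle, 0 genes were called in every 1 of these lists in both genotypes with edgeR.

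RefSeq promoter windows of 300 bases, 250 before to 50 after each start in GRCm38.p6, were at hand for 5 members, Cyp4a32, Cyp4b1, Cyp4f14, Cyp4f15, and Cyp4v3. They were searched on both strands for AGGTCA, the core bound by many nuclear receptors, for its direct repeat with 1 base between (DR1, bound by PPAR-alpha with RXR) with at most 2 mismatches, and for TTCNNNGAA, the site of STAT5. No window of these members held AGGTCA, which 16.3% of 32841 windows hold, or such a DR1, which 3.86% hold. TTCNNNGAA, held by 8.30% of windows, was in the window of Cyp4b1 and in that of Cyp4f13. That these letters are absent from a window says nothing about the factor.

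The 3 Cyp4f genes of chromosome 17 that were lower together in vehicle livers had a short block in common, GGATTGG, which was noticed after the sequences were seen. It was in the windows of Cyp4f15 and Cyp4f13 and in 3 of the 4 windows of Cyp4f14, on the coding strand, and 4.72% of all windows hold it on either strand. It contains ATTGG, the core of the CCAAT box read backwards, which 37.4% of windows hold. The 100 bases before the first annotated start of each gene are shown with the block in capitals, so that its place can be compared. They are chr17:32917357-32917456 on the minus strand for Cyp4f14, chr17:32685527-32685626 on the plus strand for Cyp4f15, and chr17:32947403-32947502 on the minus strand for Cyp4f13.

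Cyp4f14: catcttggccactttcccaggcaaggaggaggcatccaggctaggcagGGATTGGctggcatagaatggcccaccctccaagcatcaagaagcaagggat
Cyp4f15: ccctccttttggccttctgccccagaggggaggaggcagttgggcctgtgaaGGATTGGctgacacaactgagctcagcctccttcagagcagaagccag
Cyp4f13: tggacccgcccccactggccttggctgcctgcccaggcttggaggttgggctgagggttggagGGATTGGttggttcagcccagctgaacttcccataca

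Counted from the last base of the block, the start is the 46th base in Cyp4f14, the 42nd in Cyp4f15, and the 31st in Cyp4f13. A match of letters is a description and no site of binding.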

How the data were processed

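Gene counts for 24 liver libraries were used as the authors deposited them, without normalization. Libraries were polyA selected and stranded per the labels. The submitters' processing notes name cutadapt 4.8, FastQC 0.11.8, STAR 2.7.8a, RSEM 1.3.3, and GRCm38. The authors removed genes with 0 counts in all samples and tested with DESeq2. Genes were located through GENCODE M21 for 23926 of 23972 genes.

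Library sizes were adjusted with TMM, and edgeR 4.0.16 (R 4.3.3) gave 1 robust quasi-likelihood fit of the 4 groups over all genes, without covariates, with Benjamini-Hochberg adjustment over all genes, after a check on simulated data. A call needed an adjusted p below 0.05 and a fold change above 1.5 (interaction by adjusted p alone). SEs are the log2 fold change divided by the root of F. CPM were computed with these sizes, and their logs with a prior count of 2. Exact tests compare mean log2 CPM of 2 groups, two-sided and unadjusted. No library pair within a group agreed within sampling noise (chi-square per degree of freedom of at least 13.1). A floor of 3 counts was 0.139 to 0.151 CPM per library.

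All members are named. From each list at most 4 genes with the smallest p with vehicle are named, along with Ppara, Por, Aldh3a2, Ehhadh, Acot1, and Cpt1a, and the genes most like each member. Some genes of this rule are not reported here. The members and lists were chosen with earlier results of these data known. Alternatives were DESeq2 1.42.0, its size factors, only the groups compared, filterByExpr, a covariate for number length or for the gene length slope, 4-digit animals alone, the adjusted p alone, other prior counts, raw shares, and leaving out libraries. Libraries are single mice, and p-values measure the spread between them.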

Additional observations from a re-analysis of the deposited data

Results flagged for a closer look

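Of 30 pairs of a member and a group of 4 to 10 libraries, 7 held a library that stood apart from the rest of its group by Dixon's criterion. Chance alone meets this criterion in about 1 of 20 where values follow a normal distribution. Values of Cyp4a12a and Cyp4a12b, which rest on few reads, do not, so that 7 of 30 cannot be set against that rate. For Cyp4a14, control vehicle library 2 was highest at 2952 CPM. For Cyp4f14, library 3 of the FGF21-labelled Lmna ADKO group was lowest at 32.6 CPM. For Cyp4a12a, control vehicle library 4 (0.230 CPM) and Lmna ADKO vehicle library 5 (3.80 CPM) were highest in their groups. For Cyp4a12b the highest were control vehicle library 2 (0.0469 CPM), Lmna ADKO vehicle library 6 (0.342 CPM), and Lmna ADKO FGF21-labelled library 5 (0.143 CPM), which rest on 1 to 8 reads each.

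The change of Cyp4f14 with the treatment label differed between genotypes by 0.95 on the log2 scale. The edgeR interaction test gave an unadjusted p of 0.000146 and an adjusted p of 0.390 over all genes. All 3 FGF21-labelled controls were below all vehicle controls, and 7 of 8 FGF21-labelled Lmna ADKO libraries were above all vehicle ones. The cause was not tested.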

How the results depend on the processing

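With vehicle, the 4 calls between genotypes were kept by the same genes under 8 of 8 alternatives and when each of the 13 libraries was left out. With the FGF21 label, Cyp4f14 and Cyp4f15 were called under 9 of 9 alternatives, but the count of 4 members became 2 with number length as a covariate, without the 3 libraries whose levels fell most with gene length, and with 4-digit animals alone, and ran from 2 to 4 when 1 library was left out. Cyp4a10 then had an edgeR adjusted p of 0.0602, 0.327, and 0.117, and Cyp4a12a was also lost with only the groups compared (adjusted p = 0.129). The count of members called for the interaction went from 0 to 1, Cyp4f14, with DESeq2, and ran from 0 to 1 in the leave-outs, with a call only without Lmna ADKO FGF21-labelled library 3. Without that library, the difference of Cyp4f14 with treatment in Lmna ADKO mice was 0.58 (edgeR adjusted p = 0.00874), under the fold threshold. The causes of these changes were not tested. Counts for treatment in each genotype stayed at 0 under all alternatives run. With prior counts of 2 and of 0.5, 14 of 40 exact tests had an unadjusted p under 0.05. These tests share libraries and were run on the members alone. Without the share over all genes, the count is no support for the members.

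From raw counts, without scaling by length, the shares of Cyp4a10 and Cyp4a14 within the Cyp4a genes moved by more than 1 SD in 3 groups and by less in FGF21-labelled controls. Cyp4a10 took 39.4% in control vehicle, 29.7% in Lmna ADKO vehicle, and 30.3% in FGF21-labelled Lmna ADKO livers, and Cyp4a14 59.4%, 68.2%, and 67.5%. The filter on low counts removed Cyp4a12b, which then had no value. No paired analysis was possible because the labels give each mouse a number of its own that no other group shares. Depth limits Cyp4a12a and Cyp4a12b, with at most 82 reads per library.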
